A study of Mus musculus with 4 samples.

Results

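The U2 snRNP protein genes described here are 10 genes taken by name: Sf3a1, Sf3a2 and Sf3a3, which encode the SF3a complex, Sf3b1 to Sf3b5, which encode 5 subunits of the SF3b complex, and Snrpa1 and Snrpb2, which encode the U2-specific proteins U2 A′ and U2 B″. All 10 were found among the 55414 genes of the count files, and all 10 passed the filter on low counts that left 19912 genes for testing. The cells were primary neural stem cells of the mouse brain, grown from cortex at E14.5 with EGF at 20 ng/ml and basic FGF at 10 ng/ml, first as floating spheres and then as an attached layer. Mettl4 knockout cultures (2 libraries) were compared with wild type cultures (2 libraries). The labels say neither how Mettl4 was disrupted nor the mouse strain, nor whether replicates were separate embryos or cultures, so a p-value here speaks of the variation among these 4 libraries, some of which may be technical.

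The U2 snRNP is the particle of the spliceosome that recognises the branch site of an intron. Its U2 RNA pairs with the bases around the branch adenosine, SF3b clamps that helix, and SF3a joins SF3b to the rest of the particle. In the assembled particle these subunits occur in equal number. METTL4 is known to methylate an internal adenosine of the U2 RNA, which is already methylated on its ribose. The start of the U2 RNA is shown because it holds both the METTL4 substrate and the bases that pair with the branch site. It is the first 60 of the 191 bases of the mouse gene Rnu2-10 on chromosome 11 in the GENCODE M21 transcript set (GRCm38), written as DNA.

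Rnu2-10: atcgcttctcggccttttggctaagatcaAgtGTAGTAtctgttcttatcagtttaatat

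The single capital A is the adenosine at position 30, counted from the 5′ end, and the run of capitals at positions 33 to 38 is the motif GTAGTA, which recognises the branch site. The motif starts 3 bases after that adenosine. Rnu2-10 itself could not be matched in the count files, so the data below concern the RNA of the proteins that bind it.

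The libraries held 18150389 and 19310668 counts for the knockout and 12812064 and 16883734 for the wild type. Mettl4 RNA was 15.6 and 17.6 CPM (counts scaled to a common library size, with TMM factors) in the knockout libraries, against 63.8 and 66.6 CPM in the wild type libraries (log2 fold change -1.97, SE 0.17, adjusted p = 0.00513 by edgeR's quasi-likelihood test), so the labels and this gene went together. The 10 neural stem and radial glial markers checked were all counted in all 4 libraries, with summed levels of 5449 and 6396 CPM in the knockout and 5589 and 6004 CPM in the wild type. Oligodendrocyte lineage markers summed to 589 and 574 CPM in the knockout and 507 and 521 CPM in the wild type. Olig2 made up most of these sums, at 504 and 509 CPM in the knockout and 440 and 467 CPM in the wild type. All 6 that were tested had a positive log2 fold change, with Sox10 at 1.57 (SE 0.45). Astrocyte markers summed to 420 and 314 CPM in the knockout and 262 and 331 CPM in the wild type. By log2 fold change, 2 of 5 were positive, Aldh1l1 at 0.73 (SE 0.20) and Aqp4 at 0.13 (SE 0.20). The other 3 were lower in the knockout, Gfap at -0.86 (SE 0.43), S100b at -0.74 (SE 0.35) and Slc1a2 at -0.21 (SE 0.20). Aldh1l1 itself had 247 and 198 CPM in the knockout and 110 and 158 CPM in the wild type. Neuronal markers summed to 1137 and 1358 CPM in the knockout and 1023 and 1297 CPM in the wild type, with Neurod2 at 0 counts in all 4. Nearly all of this was Map2, at 1110 and 1335 CPM in the knockout and 999.7 and 1266 CPM in the wild type. Tubb3 had 5.86 and 6.46 CPM in the knockout and 5.21 and 4.88 CPM in the wild type. Of 6 neuronal markers tested, 3 had a positive log2 fold change and 3 a negative one, with a median of -0.13. The positive ones were Dcx at 0.69 (SE 0.49), Tubb3 at 0.29 (SE 0.26) and Map2 at 0.11 (SE 0.22). Lower in the knockout were Snap25 at -0.59 (SE 0.30), Syt1 at -0.43 (SE 0.33) and Rbfox3 at -0.37 (SE 0.30). Markers of dividing cells summed to 3186 and 3785 CPM in the knockout and 3075 and 3495 CPM in the wild type. Mesenchymal markers summed to 3.64 and 2.79 CPM in the knockout and 7.85 and 5.73 CPM in the wild type. The marker lists of microglia, endothelium and red blood cells each summed to at most 7.91 CPM in any library, and the microglial marker Tmem119 had 0 counts in all 4. None of these marker genes was called by edgeR (0 past an adjusted p of 0.05). Sox10, Aldh1l1, Acta2 and Hba-a2 had an unadjusted p of 0.00574, 0.00374, 0.00784 and 0.0442 in the edgeR quasi-likelihood test. Acta2, the largest part of the mesenchymal sum, had a log2 fold change of -1.21 (SE 0.37). The red blood cell marker Hba-a2, with 4 to 24 counts per library, had one of 1.38 (SE 0.60). Knockout replicate 2 and wild type replicate 1 stood apart from the rest. Knockout replicate 2 had a summed level of 1007 CPM for 8 hypoxia response genes, against 610 CPM in knockout replicate 1 and 575 and 579.8 CPM in the wild type. Most of each sum was Ldha, at 491 and 794 CPM in the knockout and 469 and 489 CPM in the wild type. Of the 8, 7 had a positive log2 fold change and 4 had an unadjusted p under 0.05 (0 called by edgeR). In those 4, Pdk1, Bnip3, Egln3 and Pfkl, both knockout libraries were above both wild type libraries, which picking by p makes likely. Over all genes tested this held for 12.5%. Vegfa and Ldha were also above in both, Ldha in knockout replicate 1 only narrowly (491 against 489 CPM in wild type replicate 2). Slc2a1 overlapped. Ankrd37 was lower in both knockout libraries, at 1.48 and 2.85 CPM, against 2.87 and 2.87 CPM in the wild type. Egln3 had 22.1 and 28.8 CPM in the knockout and 15.3 and 14.8 CPM in the wild type. Wild type replicate 1 had the Y-linked RNA Ddx3y at 47.2 CPM, where the other 3 libraries had 0 counts, which allows up to 0.178 CPM in any of them by counting error alone, and Xist at 286 CPM, against 3475 and 3488 CPM in the knockout and 3335 CPM in wild type replicate 2. The part of any of these features in the results below was not tested, and values without either of these libraries are given. In bulk RNA, fewer cells of a type and less RNA per cell cannot be told apart.

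No difference between Mettl4 knockout and wild type cells was detected in the RNA of the 10 U2 snRNP protein genes. Past an adjusted p of 0.05, 0 of 10 were called by the edgeR quasi-likelihood test, against 0.00502% of all genes tested, which is Mettl4 alone. At an unadjusted p under 0.05 there were 0 of 10, against 2.77% of all genes, and DESeq2 and limma-voom also called 0 of 10. In all 10 genes the knockout and wild type libraries overlapped, where the 2 genotypes were fully separated for 27.4% of all genes tested, with the knockout higher in 12.5% and lower in 14.9%. The log2 fold changes ran from -0.09 for Sf3a2 to 0.14 for Sf3a3, with a median of 0.09, beside a median of -0.0013 over all genes tested. Of the 10, 6 were positive and 4 negative, against 49.7% positive among all genes. Without knockout replicate 2 the median was -0.03 and 4 genes were positive. Without wild type replicate 1 they were 0.09 and 7.

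**Figure D1:**
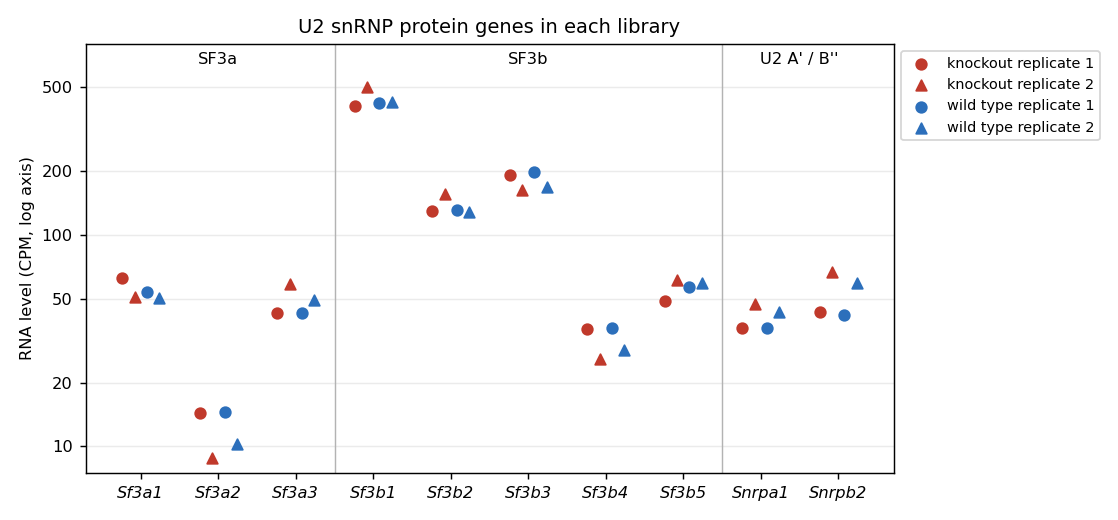
RNA level of each U2 snRNP protein gene (CPM, log axis) in the 4 libraries, with knockout in red left of wild type in blue, circles for replicate 1 and triangles for replicate 2. Sf3b1 lies at the top, at 406 to 499.9 CPM, and Sf3a2 at the bottom, at 8.87 to 14.6 CPM, and the red and blue symbols overlap for every gene.

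SF3a is a complex of 3 proteins that tethers SF3b to the core of the particle. Sf3a1, whose protein binds the other two and also reaches the U1 particle, had 62.5 and 50.8 CPM in the knockout libraries and 53.7 and 50.5 CPM in the wild type libraries. Knockout replicate 1 was the highest of the 4, and the other 3 lay between 50.5 and 53.7 CPM. Sf3a2, which encodes a zinc finger protein, had 14.46 and 8.87 CPM in the knockout and 14.6 and 10.3 CPM in the wild type. Replicate 1 was above replicate 2 in both genotypes, and the 2 genotypes overlapped. This gene had the fewest reads of the 10, between 162 and 274 per library, and 16.1% of its annotated exon bases overlap the gene Plekhj1 on the opposite strand. Whether the counting used strand is not known from the labels, so its level is uncertain. Sf3a3, which encodes another zinc finger protein, had 42.9 and 58.3 CPM in the knockout and 42.9 and 49.1 CPM in the wild type. Here replicate 2 was the higher in both genotypes.

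SF3b holds the branch site. Sf3b1, the large ring-shaped scaffold that closes around the branch helix and is often mutated in human myelodysplastic syndromes, had 406 and 499.9 CPM in the knockout and 419 and 425 CPM in the wild type. Its highest value was in knockout replicate 2 and its lowest in knockout replicate 1, so the wild type libraries lay between them. Sf3b2, a partner of Sf3b4, had 130 and 156 CPM in the knockout and 131 and 129 CPM in the wild type, with knockout replicate 2 alone above the other 3. Sf3b3, a propeller protein on which Sf3b1 rests, had 192 and 163 CPM in the knockout and 199 and 168 CPM in the wild type. In this gene the values of the same replicate number lay closer together than those of the same genotype. Sf3b4, an RNA-binding subunit that contacts the intron upstream of the branch site, had 35.9 and 26.0 CPM in the knockout and 36.3 and 28.6 CPM in the wild type, the same order as Sf3b3. Sf3b5, the smallest of the 5 SF3b subunits listed, had 48.7 and 61.4 CPM in the knockout and 57.1 and 59.6 CPM in the wild type. Its knockout libraries lay on either side of the wild type pair.

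U2 A′ and U2 B″ bind each other and a stem-loop near the 3′ end of the U2 RNA. Snrpa1, the gene of the leucine-rich U2 A′, had 36.4 and 47.2 CPM in the knockout and 36.2 and 43.0 CPM in the wild type. Snrpb2, the gene of the RNA-binding U2 B″, had 43.4 and 66.9 CPM in the knockout and 41.7 and 59.3 CPM in the wild type. In both genes the replicates numbered 2 were high and those numbered 1 low, whatever the genotype.

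The intervals show how closely the changes were measured. The 95% confidence interval of the log2 fold change lay within a 2-fold change in either direction for 10 of 10 genes, and within 1.5-fold for 8 of 10. The exceptions to the narrower bound were Sf3a2, with a log2 fold change of -0.09 and an interval from -0.72 to 0.55, and Snrpb2, with one of 0.13 and an interval from -0.39 to 0.64. Sf3b2 had the smallest p of the 10 at 0.385, unadjusted, with a log2 fold change of 0.14 and an interval from -0.20 to 0.47 (edgeR quasi-likelihood test, adjusted p = 1.00). Sf3b1, read most deeply with 5553 to 9133 counts per library, had a log2 fold change of 0.10 and an interval from -0.29 to 0.49. These intervals hold gene by gene and were not widened for 10 genes together. The median standard error was 0.18 in these genes and 0.18 in the 9401 genes with a mean level in the same range.

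**Figure D2:**
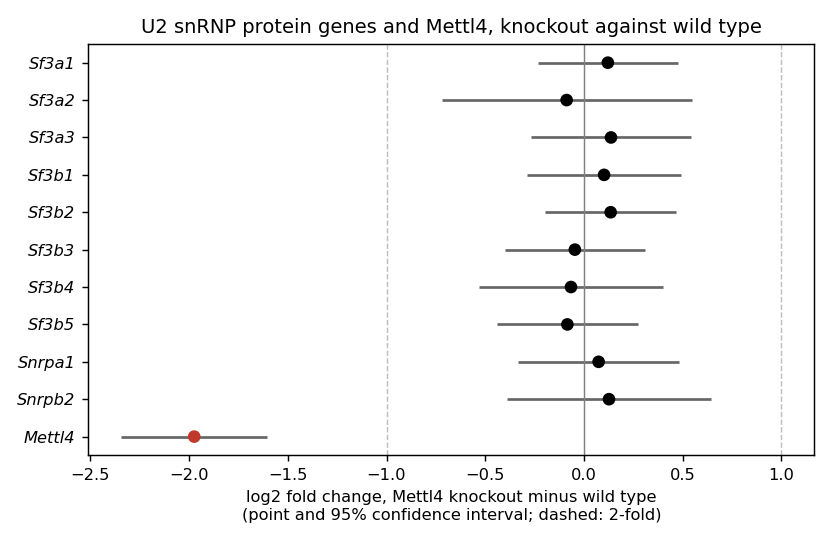
Log2 fold change of each U2 snRNP protein gene and of Mettl4, knockout minus wild type, as points with 95% confidence intervals, with dashed lines at a 2-fold change. All 10 U2 intervals include 0 and stay inside the dashed lines, while that of Mettl4 runs from -2.34 to -1.60.

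Each knockout library was also set against the mean of the wild type libraries. In knockout replicate 1, 4 of 10 genes were above that mean, with a median log2 difference of -0.03, and the values ran from -0.26 for Sf3b5 to 0.26 for Sf3a1. In knockout replicate 2, 6 of 10 were above it, with a median of 0.16, from -0.46 for Sf3a2 to 0.43 for Snrpb2. Over all genes tested the medians were 0.01 and -0.02. The summed level of the 10 genes was 1013 and 1139 CPM in the knockout libraries and 1032 and 1023 CPM in the wild type libraries, so the highest sum was that of knockout replicate 2 and the other 3 were close.

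The spread between the 2 libraries of a genotype was wider than the difference between genotype means, in these genes as over all genes. The order is expected even with no genotype effect, since single libraries vary more than means of 2 libraries. No conclusion is drawn from it. Between the knockout replicates the median absolute log2 difference of the 10 genes was 0.35, and between the wild type replicates it was 0.22, against a median absolute log2 fold change of 0.09 between genotypes. Over all genes tested these medians were 0.27, 0.24 and 0.15. In the genes of the same range of level, the replicate differences had medians of 0.20 and 0.17. In 9 of the 10 genes the difference of replicate 2 from replicate 1 had the same sign in both genotypes, as it did in 64.3% of all genes tested and 71.5% of those in the same range of level. Sf3b2 was the exception, with a log2 difference of 0.26 between the knockout replicates and -0.03 between the wild type replicates. At the ends stood Snrpb2, at 0.62 in the knockout and 0.51 in the wild type, and Sf3a2, at -0.70 and -0.49. The labels do not say that a replicate number marks a shared day or batch.

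Base composition went along with this spread. Sf3a2 had the highest transcript GC content of the 10 genes, 62.2%, and Snrpb2 the lowest, 39.3%. Across the 10 genes, Spearman's rho between GC content and the difference of replicate 2 from replicate 1 was -0.68 in the knockout and -0.64 in the wild type. Over all genes tested it was -0.19 and -0.29. These are descriptions across genes that share the same 4 libraries, not tests. With each library's GC trend removed, rho across the 10 genes was -0.55 in the knockout and -0.37 in the wild type. The median absolute difference of the 10 genes was then 0.36 in the knockout and 0.18 in the wild type. The difference had the same sign in both genotypes for 8 of 10 genes. Snrpb2 was then at 0.59 in the knockout and 0.40 in the wild type, and Sf3a2 at -0.48 and -0.24.

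**Figure D3:**
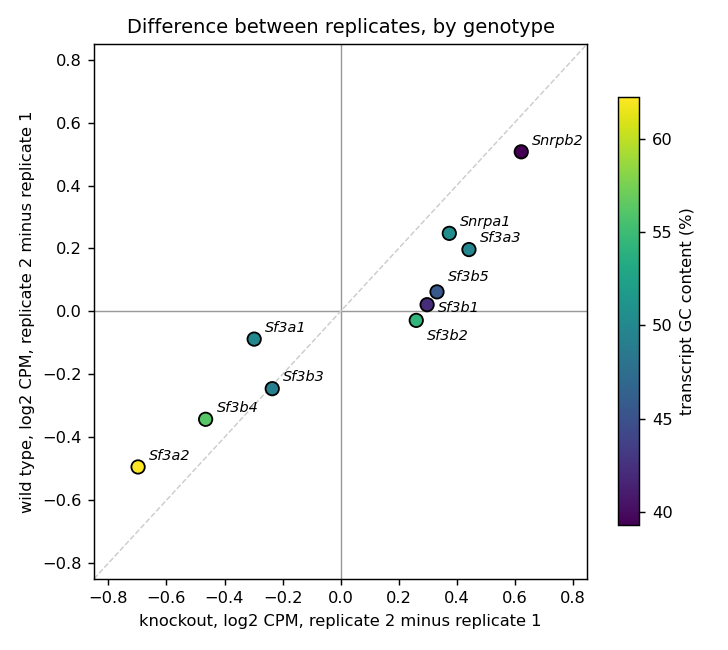
Difference between replicates (log2 CPM, replicate 2 minus replicate 1) in the knockout on the horizontal axis and in the wild type on the vertical axis, 1 point per gene, coloured by transcript GC content; the dashed line marks equal differences. Points run from Sf3a2 at the lower left to Snrpb2 at the upper right, and Sf3b2 alone lies below the zero line while right of the vertical one.

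The stoichiometry of RNA levels can be compared between genes only per length, and the answer depended on which length was used. Per kilobase of all annotated exons, Sf3b1 was the highest of the 10, at 39.9 ± 5.81 CPM per kilobase in the knockout and 37.1 ± 0.388 in the wild type (SD, n = 2 each). Sf3a1 and Sf3a2 were the lowest. Sf3a1 had 9.22 ± 1.34 CPM per kilobase in the knockout and 8.48 ± 0.367 in the wild type, and Sf3a2 had 4.39 ± 1.49 in the knockout and 4.68 ± 1.13 in the wild type (SD, n = 2 each). The other 7 genes lay between, with means over the 4 libraries from 12.8 CPM per kilobase for Snrpa1 to 20.0 for Sf3b2. In the full order (Sf3b1, Sf3b2, Snrpb2, Sf3a3, Sf3b3, Sf3b5, Sf3b4, Snrpa1, Sf3a1, Sf3a2), the gaps below Sf3b1, above Sf3a1 and above Sf3a2 held in all 4 libraries without overlap. Every other pair of neighbours overlapped, with each order seen in 2 of the 4 libraries.

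By the mean over the 4 libraries, Sf3a2 was the lowest and Sf3a1 next to it under each of the lengths tried. These were all annotated exons, the principal transcript and the coding sequence. In single libraries Sf3a2 stayed the lowest. Sf3a1 was number 8, not 9, in knockout replicate 1 per principal transcript base and in knockout replicate 2 per coding base. Sf3b5 changed place the most. It has a single exon, annotated at 3841 bases in GENCODE M21, at 734 bases in RefSeq, and with 258 coding bases. Its mean level over the 4 libraries was 14.8 CPM per kilobase over the GENCODE length, which placed it number 6 per exon base and number 8 per principal transcript base. Over the RefSeq span it was 77.2 CPM per kilobase, above the 70.7 of Sf3b1 per principal transcript. Per coding base Sf3b5 was number 1 and Sf3b1 number 2. Lengths came from an annotation older than the one behind the counts, and which exons these cells use was not measured.

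**Figure D4:**
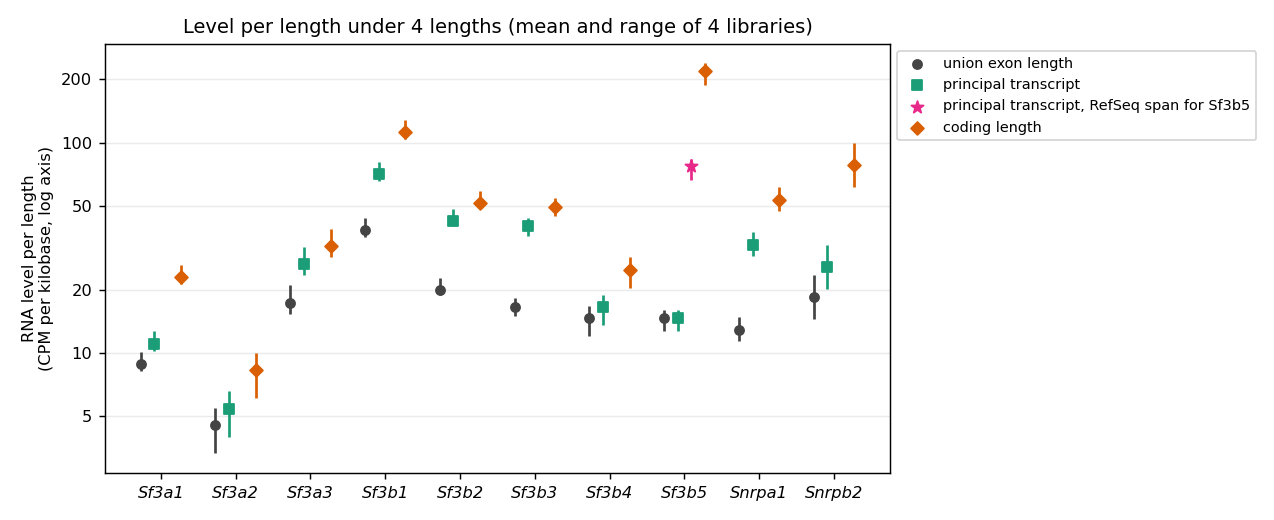
Level per length of each gene (CPM per kilobase, log axis) when counts are divided by all annotated exons, the principal transcript, the coding sequence or, for Sf3b5, the RefSeq span; points are means over the 4 libraries and lines the range. Sf3a2 is the lowest in each scale, and Sf3b5 lies between 14.8 and 219.7 CPM per kilobase depending on the length.

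By complex, the shares of the summed level per kilobase of exon differed between the genotype means by 0.54 percentage points for SF3a, -1.03 for SF3b and 0.49 for the U2 A′ and U2 B″ genes, knockout minus wild type. SF3a, with 3 of the 10 genes, held 19.5% and 18.0% in the knockout libraries and 18.3% and 18.1% in the wild type libraries. SF3b, with 5 genes, held 63.8% and 60.8% in the knockout and 65.6% and 61.1% in the wild type. The genes of U2 A′ and U2 B″ held 16.7% and 21.2% in the knockout and 16.1% and 20.9% in the wild type. The share of this last pair was higher in replicate 2 than in replicate 1 of both genotypes, by more than it differed between genotype means. These differences turned in sign with single libraries. The difference for SF3a ran from -0.18 without knockout replicate 1 to 1.25 without knockout replicate 2, that for SF3b from -3.30 without wild type replicate 2 to 1.24 without wild type replicate 1, and that for the U2 A′ and U2 B″ genes from -1.90 without wild type replicate 1 to 2.88 without wild type replicate 2. No direction is given for any of the 3 shares, and no test of them was made; the smallest p of an exact two-sided permutation test over 2 libraries against 2 is 0.333.

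Ratios between the counts of 2 genes were also taken within each library. Such a ratio carries the lengths of both genes and so is not a stoichiometry. The lengths cancel only when the same ratio is compared between libraries. Of the 45 ratios among the 10 genes, 39 differed more between the knockout replicates than between the genotype means. Here too, single libraries are set against means of 2, which vary less. Sf3a1 was counted 4.32 and 5.73 times as often as Sf3a2 in the knockout and 3.69 and 4.91 times in the wild type. The ratio of Sf3a1 to Sf3a3 was 1.46 and 0.871 in the knockout and 1.25 and 1.03 in the wild type. By counts, Sf3a3 was the higher only in knockout replicate 2. Divided by any of the lengths tried, Sf3a3 was above Sf3a1 in every library. Per kilobase of exon, Sf3a3 had 15.4 and 20.9 CPM in the knockout, against 10.2 and 8.27 for Sf3a1. In the wild type it had 15.4 and 17.6 CPM per kilobase, against 8.74 and 8.22 for Sf3a1. The widest swing was that of Snrpb2 against Sf3a2, a range of 1.40 on the log2 scale over the 4 libraries. The genotypes were fully separated for 5 of the 45 ratios (11.1%), and 4 of the 5 contained Sf3b5. The share over ratios of other genes was not computed, and the 45 ratios reuse the same 10 genes, so this rate has no like comparison. The ratio of Sf3b1 to Sf3b5 was 8.35 and 8.15 in the knockout and 7.35 and 7.14 in the wild type. The ratio of Sf3b2 to Sf3b5 was 2.67 and 2.54 in the knockout and 2.30 and 2.16 in the wild type. Those of Sf3a3 and Snrpa1 also had Sf3b5 relatively lower in the knockout, and the other separated ratio was Sf3a1 to Sf3b3. The differences between genotypes in these 5 ratios were 0.16 to 0.22 in size on the log2 scale, the ratios were singled out with their values known, and they have no test.

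Reads of close copies could touch some of these values. Among GENCODE transcripts, a processed pseudogene of Sf3b4, Gm7935, matched it at 99.3% identity over 1278 bases and had 4.37% as many counts as Sf3b4. The pseudogene Gm12697 matched Snrpb2 at 91.0% over 680 bases and had 2.61% as many counts. A closer copy of Snrpb2, the pseudogene Gm8162, matched it at 93.7% over 678 bases and had 0.0560% as many counts. Plekhj1, which overlaps Sf3a2, had 259% as many counts as Sf3a2. No other gene matched the remaining 8 at 90% or more over at least 300 bases, apart from the exons that Sf3a2 and Plekhj1 share.

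Other genes around the U2 snRNP gave no call either. SF3b has further subunits that are not among the 10 genes, and the free particle carries other factors such as a helicase. Over 5 such genes, the median log2 fold change was 0.05, with 3 positive and 2 negative (0 called by edgeR, 0 at an unadjusted p under 0.05). Sf3b6, a small RNA-binding subunit, had 72.5 and 95.4 CPM in the knockout and 72.5 and 78.0 CPM in the wild type. Ddx46, the helicase that readies the particle for the branch site, had a log2 fold change of -0.13 (SE 0.14). Among 14 factors of branch site recognition, such as Sf1 and the U2af genes, the median was 0.02 with 9 positive and 5 negative, and Smndc1 (0.19, SE 0.16) and Rbm39 (0.16, SE 0.17) had the smallest p. Of 8 genes of the U11/U12 particle of minor introns, the median was 0.10, with 7 positive and 1 negative. That particle also contains SF3b. Its Rnpc3 had 0.20 (SE 0.16) and Zmat5 0.30 (SE 0.31).

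For the other particles, 5 of 7 U1 genes were positive with a median of 0.08, among them Luc7l3 at 0.21 (SE 0.14), while Luc7l was at -0.24 (SE 0.15). Of 15 proteins of the U4/U6.U5 particle, 9 were positive with a median of 0.03, with Prpf8 at 0.18 (SE 0.18) and Snu13 at 0.14 (SE 0.17). All 7 Sm core genes, whose proteins form the ring around U2 and the other spliceosomal RNAs, were positive, with a median of 0.23, and Snrpd1 and Snrpe had the smallest p, at 0.31 (SE 0.21) and 0.23 (SE 0.20). Their summed level was 396 and 566 CPM in the knockout and 400 and 454 CPM in the wild type, so the excess lay in knockout replicate 2. Of 16 genes of snRNP assembly and import, 11 were positive with a median of 0.04, with Gemin2 at 0.30 (SE 0.26) and Wdr77 at -0.16 (SE 0.20). In these lists 0 genes were called over all genes tested by edgeR and 0 had an unadjusted p under 0.05. Of the 14 small RNA genes listed, 4 could be matched, and Rnu2-10 was not among them. The U12 RNA gene Rnu12 had 63 and 94 counts in the knockout and 51 and 76 in the wild type, and Rnu3a, a nucleolar RNA outside the spliceosome, had 25 and 39 in the knockout and 11 and 29 in the wild type.

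Averaged over the 10 genes, the profile across the 4 libraries was nearly flat, from -0.02 in wild type replicate 2 to 0.05 in knockout replicate 2 on the centred log2 scale. The protein-coding genes closest to this mean profile by Euclidean distance over the 4 libraries were Xiap, Fam91a1, Erc1, Tab2 and Kcmf1. The likeness is weak as a description, since 43.1% of the other protein-coding genes tested lay closer to it than the median U2 snRNP protein gene did.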

How the data were processed

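RNA sequencing counts per gene were used from 4 libraries. The deposited files hold whole-number counts per Ensembl gene, not normalised, which the authors made with STAR 2.7.10 and featureCounts on GRCm39 per the submitters' processing notes. Neither strand nor multi-mapped read handling is stated there. Symbols, lengths and GC content came from GENCODE M21 (GRCm38), matched by gene ID without version (52081 of 55414 IDs). No coordinates are given. All genes were fitted together with edgeR 4.0.16 in R 4.3.3: filterByExpr defaults (minimum count 10), TMM factors, glmQLFit with robust=TRUE and the quasi-likelihood F test of knockout against wild type, with Benjamini-Hochberg adjustment over all 19912 genes tested and calls under 0.05. Fold changes are log2 of knockout over wild type. Each standard error is the absolute fold change divided by the square root of its F, with 95% intervals from the t distribution. CPM use the reads of tested genes, and log2 CPM a prior count of 2. The limit allowed by a count of 0 is 3 counts over the library total. The fit was tested on simulated data. Replicates differed by more than counting error.

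The genes and lists were chosen with earlier results of these data known. Beside the U2 genes, the text names Mettl4, the pair with the smallest p in each list and the 5 protein-coding genes closest to the mean profile. The list of small RNA genes also held Rnu3a, Rnu3b1 and Rnu7, which lie outside the spliceosome. Alternatives were other lengths, scaling and filters, DESeq2 1.42.0, limma-voom (limma 3.58.1), robust=FALSE, a block for the replicate number, removal of the GC trend (a value for 98.5% of tested genes) and leaving out each library. The GC, principal transcript and RefSeq alternatives were chosen after seeing the data.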

Additional observations from a re-analysis of the deposited data

How the results depend on the processing

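No U2 snRNP protein gene was called under any of the 15 alternatives, and the smallest adjusted p was 0.536. In the 11 alternatives that used all 4 libraries, the sign of each gene's log2 fold change was the same in 110 of 110 fits, and 6 of 10 genes were positive. Without 1 library it turned in 15 of 40 fits. Over the fits without 1 library the lowest and highest log2 fold changes were -0.0329 and 0.26 for Sf3a1, -0.48 and 0.22 for Sf3a2, -0.10 and 0.34 for Sf3a3, -0.0539 and 0.25 for Sf3b1, -0.00020 and 0.26 for Sf3b2, -0.17 and 0.0812 for Sf3b3, -0.32 and 0.15 for Sf3b4, -0.26 and 0.0761 for Sf3b5, -0.12 and 0.25 for Snrpa1 and -0.22 and 0.42 for Snrpb2. The median of the 10 genes ran from -0.0270 without knockout replicate 2 to 0.16 without knockout replicate 1, and the number of positive genes from 4 to 7. The number of genes called over all genes, 1 in the reported fit, was 41 without a low-count filter, 6 by DESeq2, and in fits where a lone library is assumed to vary like the others it was 46 without wild type replicate 1 and 26 without its replicate 2, and 189 without knockout replicate 1 and 1 without its replicate 2. With the replicate block it was 9, and 23 with the block and the GC trend removed, and 0 of the 10 genes were called in either. The deviations of same-numbered libraries from their group means correlated at 0.23 over genes, and no label says what the numbers mark. The cause of these changes was not tested. Under the other lengths and without division by length, the genotype difference in share ran from 0.34 to 0.59 percentage points for SF3a, from -1.60 to -0.51 for SF3b and from 0.17 to 1.03 for the U2 A′ and U2 B″ genes. Leaving out single libraries turned the sign of all 3 and gave -0.18 to 1.25, -3.30 to 1.24 and -1.90 to 2.88 in the same order. The U2 genes had 162 to 9133 counts per gene and library, and with 2 libraries a genotype their changes were measured only as closely as the intervals above.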
